A study of Mus musculus with 12 samples.

Results

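The genes described here encode the Myc, Max and Mxd network of transcription factors, and they were chosen by name from the known membership of the network. The 10 members are Myc, Mycn, Mycl, Max, Mxd1, Mxd3, Mxd4, Mxi1, Mnt and Mga, and all 10 were matched to the arrays by 12 probes, among 20144 matched genes. Gene expression was measured in cultured mouse osteosarcoma cells, Dunn and LM8. Dunn cells are the parental line and metastasize little, and LM8 is a subline derived from them with increased metastatic activity. Each line was compared at an early passage (25 for Dunn and 24 for LM8) and at a late passage (86 for Dunn and 91 for LM8), with 3 arrays in each of the 4 groups. The labels name no drug treatment and no engineered allele, so the groups differed in line and in time in culture. Each line is a single cell line, and the late passage cells descended from the early ones. The p-values therefore measure the spread between RNA extracts of these lines, and not between independent tumors. Where the lines were compared with passages pooled, the fit held no term for passage. The spread in that comparison therefore also held the differences between early and late arrays.

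Myc, Mycn and Mycl are helix-loop-helix leucine zipper proteins that activate transcription as dimers with Max, bound to the E-box sequence CACGTG. The Mxd proteins, Mxi1, Mnt and Mga also pair with Max and bind the same sequence, but recruit repressors, so that Max is shared between an activating and a repressing arm. Myc drives ribosome production, nucleotide synthesis and entry into the cell cycle, Mycn is best known from neuroblastoma and the embryo, and the Mxd proteins accompany cell cycle exit and differentiation.

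The values are log2 signals relative to the 75th percentile of all probes on the same array, so that 0 is the signal below which 75% of the probes lay. A gene was called changed at an adjusted p below 0.05 in a limma fit over all probes. The 75th percentile ranged from 253.1 to 840.4 signal units on the Dunn arrays and from 788.2 to 1699 on the LM8 arrays, and between 38.9% and 59.5% of the probes were well above background. Replicate arrays of a group correlated at r = 0.919 to 0.991, and the lowest value belonged to late Dunn, whose replicate 1 stood apart. The 3 slides each carried all 4 groups in a fixed order of positions, so that position and group cannot be told apart. Of 8 osteoblast markers, 5 were well above background on all 12 arrays and none was below it on all of them. The epithelial markers Cdh1 and Krt8 and the endothelial marker Cdh5 were never above background. The endothelial marker Kdr was above it on all 12 arrays, Pecam1 on 7 and Tek on 1. The epithelial markers Epcam and Krt18 were above it on 2 arrays and 1 array. Of 5 macrophage and leukocyte markers 2 were above background throughout, Itgam and Csf1r. Lyz2 was above it on 6 arrays, and Adgre1 and Ptprc on 2 each. The summed linear signal of all 5 was 6.24 to 15.7 times the 75th percentile in Dunn and 5.30 to 7.74 in LM8. Most of this sum came from Itgam. Its mean log2 levels were 3.375 and 2.993 in early and late Dunn and 2.555 and 2.615 in early and late LM8. Of 5 chondrocyte markers, Col2a1, the cartilage collagen, was well above background on the 10 arrays that gave it a value, and none of the other 4 was on all arrays. Col2a1 was bright, with mean log2 levels of 6.80 and 6.59 in early and late Dunn (2 arrays each, the third spot being an outlier by the scanner's flag) and 5.92 and 5.72 in early and late LM8. The sums over the other 4 chondrocyte markers were 0.25 to 0.671 in Dunn and 0.0975 to 0.21 in LM8. Over all 4 endothelial markers the sums were 0.722 to 2.0 in Dunn and 0.64 to 0.943 in LM8, and over all 4 epithelial markers 0.0255 to 0.57 and 0.0109 to 0.0463. The part of these differences in the results below was not tested, and fewer cells of a type and less RNA per cell cannot be told apart in such samples.

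Promoter windows are shown for the called members that were above background and have a RefSeq entry, because E-boxes are the sites through which the network acts, on its own genes among others. Each window runs from 250 bases before to 50 bases after an annotated transcription start (RefSeq, GRCm38.p6), 5′ to 3′ on the coding strand. RefSeq windows were at hand for 9 of the 10 members (11 windows), with Myc the missing entry. Capitals mark CACGTG, which reads the same on both strands, or TTTGGCGC, an E2F site, searched on both strands. The E2F site was chosen after the Mycn window had been seen.
Mxd4 (chr5:34187661-34187960, minus strand): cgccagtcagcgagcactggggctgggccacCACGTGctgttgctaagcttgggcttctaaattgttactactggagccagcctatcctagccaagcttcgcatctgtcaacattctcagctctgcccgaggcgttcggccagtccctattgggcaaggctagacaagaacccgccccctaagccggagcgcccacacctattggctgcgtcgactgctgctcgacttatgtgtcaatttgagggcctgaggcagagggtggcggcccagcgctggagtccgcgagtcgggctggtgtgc
Mnt (chr11:74830674-74830973, plus strand): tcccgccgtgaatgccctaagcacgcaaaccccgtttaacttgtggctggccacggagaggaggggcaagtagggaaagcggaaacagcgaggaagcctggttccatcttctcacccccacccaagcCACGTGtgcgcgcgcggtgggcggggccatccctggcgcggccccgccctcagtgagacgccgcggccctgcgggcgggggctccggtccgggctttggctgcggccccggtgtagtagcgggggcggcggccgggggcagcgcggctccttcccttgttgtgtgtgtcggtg
Mycn (chr12:12941787-12942086, minus strand): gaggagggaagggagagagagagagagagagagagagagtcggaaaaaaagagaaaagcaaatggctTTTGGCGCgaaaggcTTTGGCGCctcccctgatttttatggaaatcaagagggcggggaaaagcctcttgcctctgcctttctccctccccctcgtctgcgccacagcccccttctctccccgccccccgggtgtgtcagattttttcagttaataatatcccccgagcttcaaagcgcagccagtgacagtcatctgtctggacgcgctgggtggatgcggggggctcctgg
CACGTG was found in the windows of 3 members. Relative to the start, it began at position -219 in Mxd4, -123 in Mnt and -3 in Max. These are 33.3% of the 9 members with a window, and 7.15% of all 32851 windows of 300 bases hold it. The first share counts members and the other counts windows, and they were not tested against each other. The Mycn window held no CACGTG and 2 copies of TTTGGCGC, from positions -183 and -168, and 0.514% of all windows hold this sequence on either strand. None of the other members with a window had TTTGGCGC. These matches describe the letters of the windows and show nothing about binding.

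Mycn (chr12:12936093-12941836) had higher levels in LM8 than in Dunn cells on every array. In early Dunn the log2 levels of the 3 arrays were -1.38, -0.38 and -0.34, and in late Dunn -0.81, -0.66 and -0.65. In early LM8 they were 1.74, 1.55 and 1.76, and in late LM8 2.13, 2.25 and 1.92. All 6 LM8 arrays therefore lay above all 6 Dunn arrays, and replicate 1 of early Dunn was the lowest. With passages pooled, Mycn was 6.04-fold higher in LM8, a log2 difference of 2.60 (SE 0.22, 95% interval 2.12 to 3.07, adjusted p = 1.11e-05), and the adjusted p was 5.6e-05 with the slide as a block. Within slides 1, 2 and 3 the log2 difference was 3.03, 2.42 and 2.34. In order of the group means, late LM8 (2.10 ± 0.17, SD, n = 3) stood above early LM8 (1.68 ± 0.12), and both stood above early Dunn (-0.70 ± 0.59) and late Dunn (-0.71 ± 0.09). The neighbours of the same line did not pass the test (adjusted p = 0.292 for LM8 and 1 for Dunn). Mycn was the member with the widest range of group means, 2.81 on the log2 scale, among those above background on all arrays.

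Myc (chr15:61985341-61990361) moved in the opposite direction, with lower levels in LM8. The log2 levels were 3.98, 3.74 and 4.46 in early Dunn and 3.78, 3.70 and 3.57 in late Dunn. They were 2.73, 2.27 and 2.63 in early LM8 and 2.27, 2.24 and 2.10 in late LM8. The lowest Dunn array was thus above the highest LM8 array, and replicate 3 of early Dunn was the highest of all. With passages pooled the log2 difference was -1.50 (SE 0.20, 95% interval -1.94 to -1.06, adjusted p = 0.00054, and 0.00138 with the slide as a block). The differences within the slides were close to each other, at -1.38, -1.47 and -1.65. The group means followed the order early Dunn (4.06 ± 0.36, SD, n = 3), late Dunn (3.68 ± 0.11), early LM8 (2.54 ± 0.24) and late LM8 (2.20 ± 0.09). The passage neighbours did not pass the test (adjusted p = 0.766 for Dunn and 0.35 for LM8).

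Mycl (chr4:122995588-123002490), the third Myc paralog, was not well above background on any of the 12 arrays. Its signals lay between -8.88 and -4.89 on the log2 scale, with the highest values on the slide 1 arrays of Dunn. Although the pooled fit returned an adjusted p of 0.0306 for a lower Mycl signal in LM8, both groups were below background, and no fold is given.

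Max (chr12:76937269-76962323), the common partner of all these proteins, was above background on every array. The log2 levels were 3.32, 3.18 and 3.57 in early Dunn, 2.69, 2.80 and 3.04 in late Dunn, 2.78, 3.02 and 2.71 in early LM8, and 2.64, 2.27 and 2.64 in late LM8. Early Dunn was highest and late LM8 lowest, while late Dunn and early LM8 overlapped. The pooled log2 difference of -0.42 (SE 0.20, 95% interval -0.87 to 0.02) missed the threshold (adjusted p = 0.101).

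**Figure D1:**
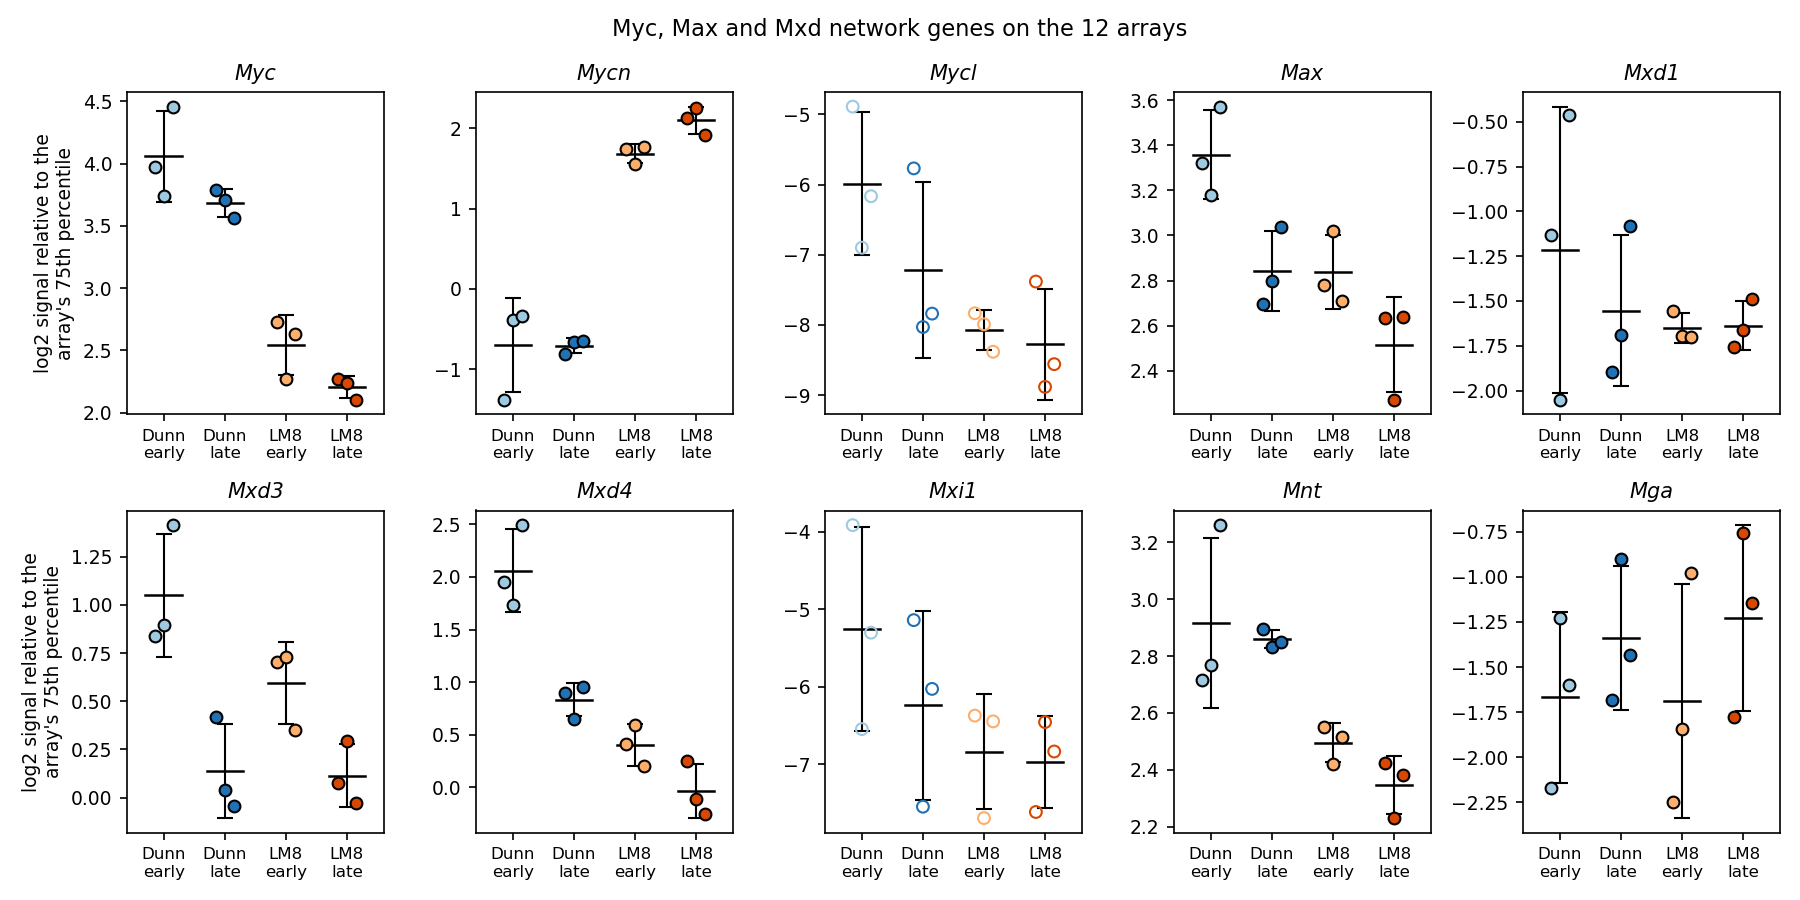
Log2 signal relative to the array's 75th percentile of each network gene in early and late passage Dunn and LM8 cells. Points are the 3 arrays of a group in replicate order, bars the mean ± SD, and open points were not well above background. Mycn lay higher and Myc lower on all 6 LM8 arrays than on the Dunn arrays, and Mycl and Mxi1 were below background throughout.

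Among the repressors, Mxd4 (chr5:34176580-34187710) showed lower levels in LM8. This Mxd protein represses through the Sin3 corepressor. Its log2 levels were 1.96, 1.73 and 2.49 in early Dunn, 0.90, 0.65 and 0.96 in late Dunn, 0.41, 0.59 and 0.20 in early LM8, and 0.25, -0.11 and -0.25 in late LM8. Early Dunn stood clear of the other groups, and all Dunn arrays lay above all LM8 arrays. The pooled log2 difference was -1.27 (SE 0.32, 95% interval -1.96 to -0.57, adjusted p = 0.0186, and 0.0134 with the slide as a block). A second, dimmer Mxd4 probe gave -1.57 (adjusted p = 0.00923). On this second probe the lines overlapped. Without the 4 arrays of slide 1, the difference of the first probe was -1.35 with an adjusted p of 0.0809, which no longer passed.

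Mnt (chr11:74830806-74845725), a ubiquitous repressor of the network, was slightly lower in LM8. The log2 levels were 2.72, 2.77 and 3.26 in early Dunn and 2.89, 2.83 and 2.85 in late Dunn. In early LM8 they were 2.55, 2.42 and 2.52, and in late LM8 2.42, 2.23 and 2.38. The lines did not overlap, but the lowest early Dunn array was close to the highest LM8 array. The pooled log2 difference was -0.47 (SE 0.16, adjusted p = 0.0363, and 0.035 with the slide as a block). This small difference was 0.72 in the opposite direction (adjusted p = 0.102) when the arrays were not scaled, and it depended on single arrays. The call was lost without replicate 3 of early Dunn, 1 of late Dunn, 2 or 3 of early LM8, or 1, 2 or 3 of late LM8, with log2 differences of -0.49 to -0.39.

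Mxd1, Mxd3 and Mga were above background on all arrays and were not called in any comparison. Mxd1 (chr6:86647044-86669234), which is induced when cells differentiate, had log2 levels from -2.05 to -0.46 in Dunn and from -1.76 to -1.49 in LM8, with the widest spread in early Dunn. The pooled difference of Mxd1 was -0.26 (95% interval -0.83 to 0.31), and -0.14 (-0.55 to 0.27) on its other probe. Mxd3 (chr13:55325170-55329900), the Mxd protein found in S phase, had log2 levels of 0.84, 0.90 and 1.41 in early Dunn, 0.42, 0.04 and -0.04 in late Dunn, 0.70, 0.73 and 0.35 in early LM8, and 0.08, 0.29 and -0.03 in late LM8. Its late arrays were below its early arrays in each line, and its pooled difference between the lines was -0.24 (95% interval -0.83 to 0.36). Mga (chr2:119872503-119970129), the scaffold of a Polycomb-type repressor complex with Max, ranged from -2.24 to -0.76 with the 4 groups overlapping, and differed by 0.05 between the lines (95% interval -0.61 to 0.70). Mxi1 (chr19:53310128-53373293), also known as Mxd2, was never well above background, with signals from -7.69 to -3.91.

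Between the lines with passages pooled, 1 of the 10 members was called higher (Mycn) and 4 were called lower (Myc, Mnt, Mxd4 and the undetected Mycl). Across all 20143 genes tested, 44.7% were called, 5.49% higher and 39.2% lower, so that calls in the lower direction were common for any gene. The median log2 difference of the members was -0.45, beside -0.68 over all genes and -0.41 over the 8181 genes above background on all arrays. The calls depended on how the arrays were scaled. With quantile normalization the median over all genes was -0.169, and 20.4% of all genes were called instead of 44.7%. Of these calls 27.2% were higher instead of 12.3%, and Mycn, Myc and Mxd4 were called. Centred on the probes above background on all arrays, the median was -0.454 and 16.4% of all genes were called. Of these calls 36.4% were higher, and the same 3 members were called. With normexp the median was -0.876, with 65.2% of all genes called and 6.84% of the calls higher. With a floor on dim signals it was -0.82, with 61.8% of all genes called and 9.1% of the calls higher. In the unscaled values it was 0.502, with 24.8% of all genes called and 94% of the calls higher. The members called there were Mycn, Mxd1 and Mxd3, all higher in LM8.

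Set against the median of all genes, Mycn was higher by 2.79 to 3.42 on the log2 scale under these 6 scalings. Myc was displaced by -1.18 to -0.50 and Mxd4 by -1.05 to -0.09. Mnt lay above the median of all genes in 5 of the 6 (0.21 to 0.59) and below it with quantile normalization (-0.15), and Max did likewise (0.26 to 0.59 and -0.10). This side depended on the reference. With the 75th percentile, the median over the 8181 genes above background on all arrays was -0.41. Mnt (-0.47) and Max (-0.42) lay slightly below that value, and Myc (-1.50) and Mxd4 (-1.27) further below. Thus Mycn was called under every scaling, Myc and Mxd4 under all but the unscaled values (Myc -0.31, adjusted p = 0.439, and Mxd4 -0.07, adjusted p = 0.834), and Mnt with the 75th percentile and with the floor.

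**Figure D2:**
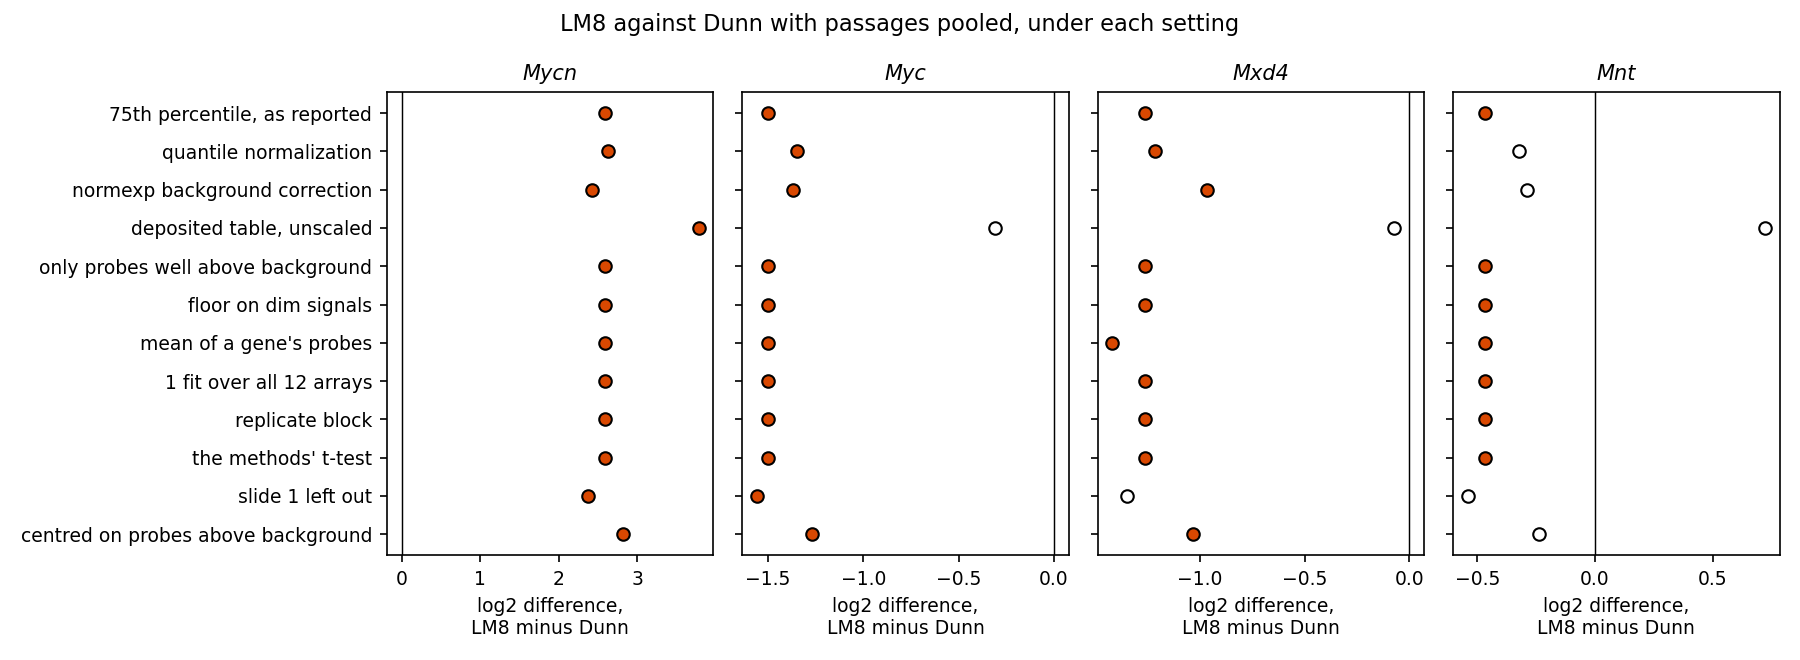
Log2 difference between LM8 and Dunn cells with passages pooled for Mycn, Myc, Mxd4 and Mnt under each setting. Filled points were called at an adjusted p below 0.05. Mycn stayed between 2.38 and 3.78 and was called under every setting, whereas Mnt turned to 0.72 in the unscaled table.

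The question of culture time was addressed by comparing late with early passages within each line. No member was called in Dunn, where 0.00497% of 20130 genes were called. At an unadjusted p below 0.05, 2 members differed, Mxd4 with a log2 difference of -1.23 (SE 0.34, adjusted p = 0.674) and Mxd3 with -0.91 (SE 0.33, adjusted p = 0.766). At the level of the study, more than 2-fold at an unadjusted p below 0.05, Mxd4 was the single member counted, and 4.97% of all genes were. The 95% interval of Myc in this comparison was -1.18 to 0.43 and that of Mycn -0.98 to 0.96. These intervals leave room for changes of almost 2-fold in either direction for Mycn. By the methods' t-test, 3 members had an unadjusted p below 0.05 (Max, Mxd3 and Mxd4) and 0 an adjusted one.

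No member was called by passage in LM8 either, where 2.79% of 20144 genes were, 0.978% higher and 1.81% lower in the late passage. Here 0 members had an unadjusted p below 0.05 in the limma fit and 2 (Mxd3 and Mycn) by the methods' t-test. The difference of Mycn was 0.41 (SE 0.19, 95% interval -0.05 to 0.87) and that of Myc -0.34 (SE 0.20, -0.83 to 0.15). Mxd3 and Mxd4 gave -0.48 (SE 0.21) and -0.44 (SE 0.22). The members' median difference was -0.44 in Dunn and -0.18 in LM8, beside -0.35 and -0.20 over all genes.

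Whether passage acted differently in the lines was tested as an interaction. It was called for 0 of the 10 members and for 0.616% of 20130 genes, and 0 members had an unadjusted p below 0.05 in the limma fit. The largest interaction of a detected member was that of Mxd4, at 0.79 (SE 0.37, 95% interval -0.04 to 1.62, adjusted p = 0.962), where the passage differences of Mxd4 were -1.23 in Dunn and -0.44 in LM8. For Myc the interaction was 0.04 (95% interval -0.73 to 0.80) and for Mycn 0.42 (-0.49 to 1.34).

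**Figure D3:**
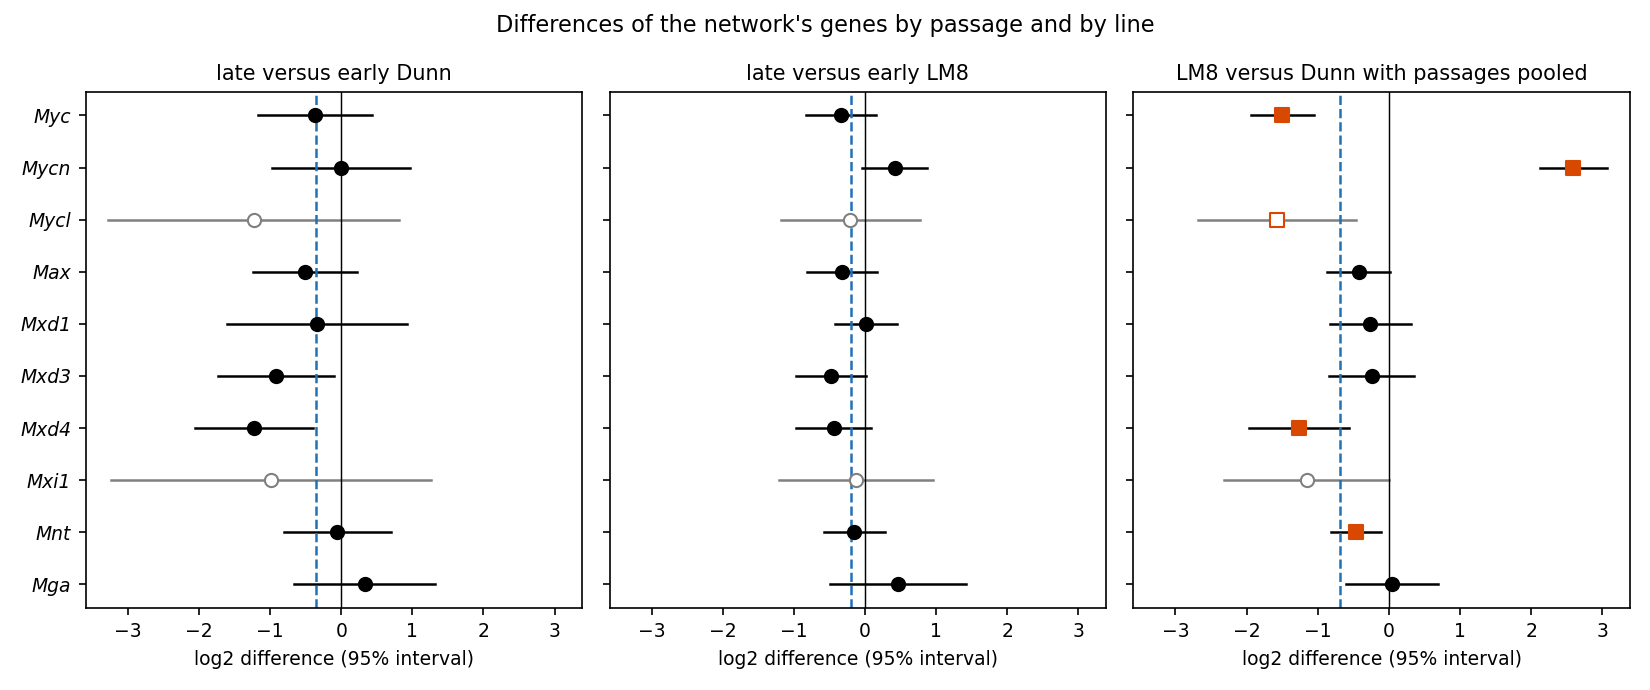
Log2 differences of the network genes with 95% intervals for late against early Dunn, late against early LM8, and LM8 against Dunn with passages pooled. Orange squares were called, open symbols were not well above background on any array, and the dashed line is the median over all genes. Mycn at 2.60 was the single member called higher between the lines, Myc lay at -1.50 among the members called lower, and no member was called by passage.

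The line comparison was repeated at each passage, to find members that differed whatever the time in culture. The comparisons share no arrays with each other, but each shares its arrays with the pooled one. At the early passage 2 members were called, Mycn higher and Mxd4 lower, while 4.66% of all genes were called, 1.32% higher and 3.35% lower. Mycn differed by 2.38 (SE 0.38, adjusted p = 0.0249) and Mxd4 by -1.66 (SE 0.34, adjusted p = 0.0487). Myc differed by -1.52 (SE 0.34) and just missed the threshold (adjusted p = 0.0606). With the slide as a block, no member was called (adjusted p = 0.0812 for each of the 3). Both calls were lost when early LM8 replicate 1, 2 or 3 or early Dunn replicate 3 was left out, and without early Dunn replicate 1 Mycn alone was called. The sizes stayed near those of all arrays, at 2.05 to 2.56 for Mycn and -1.82 to -1.44 for Mxd4 over the 6 single arrays left out. They moved more over 11 alternative settings, which include the other scalings. There Mycn ranged from 2.02 to 3.87 and was called in 8, and Mxd4 ranged from -1.71 to -0.17 and was called in 6.

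At the late passage Mycn was called higher and Myc lower, while 3.85% of all genes were called, 1.21% higher and 2.64% lower. The difference was 2.81 (SE 0.22, 6.99-fold, adjusted p = 0.00431) for Mycn and -1.48 (SE 0.21, adjusted p = 0.0266) for Myc. Mxd4 differed by -0.87 (SE 0.24, adjusted p = 0.149). With the slide as a block no member was called (adjusted p = 0.078 for Mycn and 0.148 for Myc). Without late LM8 replicate 2 no call was left, and without late LM8 replicate 1 or 3, or late Dunn replicate 2 or 3, Mycn alone was called. The sizes hardly moved in any of these, with 2.73 for Mycn and -1.50 for Myc without late LM8 replicate 2. Over 11 alternative settings, which include the other scalings, Mycn ranged from 2.69 to 3.70 and was called in 10. Myc ranged from -1.49 to -0.59 over the same settings and was called in 9. By the methods' t-test, 0 members were called at the early passage after adjustment (5 at an unadjusted p below 0.05) and 3 at the late passage.

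Several further Myc-family genes and the parallel Mlx branch, in which Mlx replaces Max, were measured as a list of 6. With passages pooled, 1 of 6 was called higher and 3 lower, beside 5.49% and 39.2% of all genes, with a median of -0.68, equal to that of all genes. Bmyc, a rodent relative of Myc without its DNA-binding part, had log2 levels of 1.00, 1.05 and 1.34 in early Dunn and 1.39, 0.94 and 1.11 in late Dunn. In LM8 it was at -5.11, -4.67 and -5.24 early and -6.06, -5.13 and -5.42 late, still well above background by the scanner's flag. These levels were low, as the lowest signals well above background on the LM8 arrays lay between -7.05 and -6.11. The closest was late LM8 replicate 1, where that lowest signal was -6.37. The log2 difference was -6.41 (SE 0.23, 85.0-fold, adjusted p = 4.92e-09), with -6.14 at the early passage and -6.68 at the late passage (adjusted p = 0.000567 and 0.00112). Bmyc was lower under each of the 6 scalings, with differences of -5.22 (adjusted p = 8.51e-07) in the unscaled values and -4.68 (adjusted p = 4.95e-09), the smallest, with normexp.

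Mlxipl, the glucose-responsive factor ChREBP that pairs with Mlx, was above background on all 6 LM8 arrays and on 0 of the 6 Dunn arrays. Its LM8 levels were -0.66, -0.06 and -0.30 early and 0.23, 0.40 and 0.72 late. It was at least 31.9-fold higher in LM8 (adjusted p = 2.35e-06), a bound set against the lowest signals above background in Dunn, at least 16.8-fold at the early passage and at least 60.9-fold at the late passage. This bound belongs to the scaling by the 75th percentile. With normexp the log2 difference of Mlxipl was 2.63 (adjusted p = 0.00121), below that bound, and under the other scalings it was 5.00 to 6.95. With the slide as a block the adjusted p was 0.0202 at the early passage and 0.084 at the late passage. Mlxip, its relative MondoA, differed by -1.32 (SE 0.18, adjusted p = 0.000573, and -0.13 unscaled). Mlx itself (-0.04, SE 0.26) and Pvt1, the noncoding neighbour of Myc (0.37, SE 0.33), were not called, and Mycs, the last of the 3 lower calls, was below background on all arrays.

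**Figure D4:**
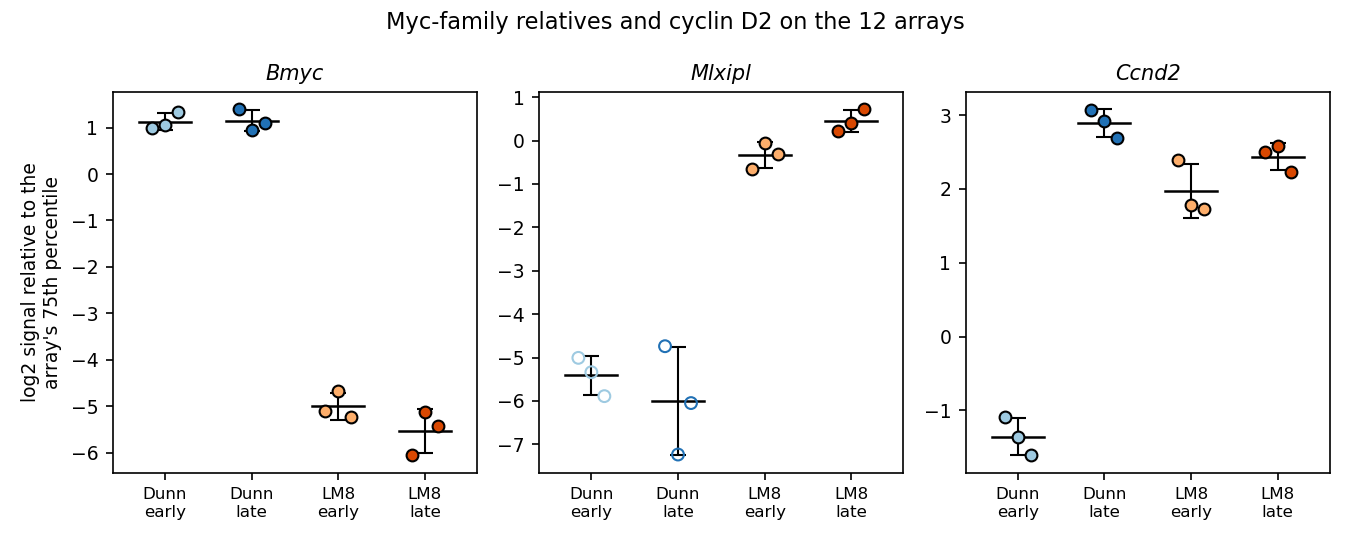
Log2 signal relative to the array's 75th percentile of Bmyc, Mlxipl and Ccnd2 in the 4 groups, with the 3 arrays of a group as points and mean ± SD as bars. Open points mark groups not well above background. Bmyc was at -6.06 to -4.67 in LM8 against 0.94 to 1.39 in Dunn, and Ccnd2 stood apart in early Dunn.

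The partners through which the network acts were called in part. Of 17 cofactors of Myc and the Mxd proteins, 1 was called higher and 5 lower (median -0.15), beside 5.49% and 39.2% of all genes. In the unscaled values 7 were higher and 0 lower, where 24.8% of all genes were called, 94% of them higher. Ncor1, a corepressor of nuclear receptors, differed by -1.02 (SE 0.22, adjusted p = 0.00866) and Ruvbl1, a helicase of the Tip60 complex, by -0.49 (SE 0.19, adjusted p = 0.0483, and 0.0563 with the slide as a block). Unscaled, they were at 0.17 and 0.70. The call in the higher direction was Ep400, the remodeler of the same complex, at 1.81 (SE 0.45, adjusted p = 0.0173). Its lines overlapped, and it was named after its value had been seen. Zbtb17, which was below background, was also called lower.

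Of 13 measured genes that control the stability of the Myc protein, 0 were called higher and 3 lower (Usp36, Usp28 and Btrc), with a median of 0.04, beside 5.49% higher and 39.2% lower over all genes. Usp36, a nucleolar enzyme that removes ubiquitin from Myc, differed by -0.88 (SE 0.20, adjusted p = 0.0126) and Usp28, which counteracts the ubiquitin ligase Fbxw7, by -0.54 (SE 0.16, adjusted p = 0.0287). In the unscaled values these were 0.31 and 0.65, and 4 genes of the list were called higher and 0 lower. Of all genes 24.8% were called there, 94% of them higher.

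The complex that Mga and Max form with Polycomb proteins, PRC1.6, had 13 measured subunits. Of these, 1 was called higher and 5 lower (median -0.23), beside 5.49% and 39.2% of all genes. In the unscaled values 4 were called higher and 0 lower, where 24.8% of all genes were called, 94% of them higher. Pcgf6, the subunit that defines this complex, was higher in LM8 by 0.89 (SE 0.20, adjusted p = 0.0135), with 1 early Dunn array without a value, and it was also higher unscaled (1.89, adjusted p = 0.00349). L3mbtl2, a methyl-lysine reader, differed by -1.23 (SE 0.20, adjusted p = 0.00202), and Tfdp2, an E2F partner, by -1.14 (SE 0.17, adjusted p = 0.000892). Rybp, a Polycomb subunit, differed by -0.53 (SE 0.18, adjusted p = 0.034), and the remaining lower calls were Tfdp1 and Ehmt2 (adjusted p of Ehmt2 0.0466, and 0.0503 with the slide as a block). Unscaled, L3mbtl2 was at -0.05, Tfdp2 at 0.04 and Rybp at 0.66. At the early passage Tfdp1 was the single gene of this list to be called, at -1.65 (SE 0.29, adjusted p = 0.032, and 0.0812 with the slide as a block). The number called there was 0 to 4 over 17 alternatives, with 0 without early LM8 replicate 1, 2 or 3 or early Dunn replicate 3, and 4 without early Dunn replicate 2.

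Genes known to be induced by Myc were examined as a list of 40. With passages pooled, 0 were called higher and 16 lower, a share near the 39.2% called lower among all genes, with a median of -0.29 beside -0.68. The lower calls of the list numbered 11 with quantile normalization and 8 when centred on probes above background. They numbered 12 with normexp (and 3 higher) and 17 with the floor (and 1 higher). Over all 20143 genes, 2990, 2106, 12234 and 11313 were called lower, in the same order of scalings. The list's share of lower calls was thus above that of all genes with quantile normalization and centring. It was below that of all genes with normexp and the floor. In the unscaled values 7 of the list were called higher and 0 lower, where 24.8% of all genes were called and 94% of those calls were higher. The 3 with the largest fall were Cdc25a, a phosphatase that activates cyclin-dependent kinases (-1.28, SE 0.20, adjusted p = 0.00127), Nop56, of the nucleolar particles that modify ribosomal RNA (-1.16, SE 0.22, adjusted p = 0.00459), and Dnph1, a nucleotide hydrolase (-0.92, SE 0.22, adjusted p = 0.0148). Their unscaled differences were -0.09, 0.03 and 0.27.

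Ccnd2, encoding the cyclin D2 that Myc is known to induce, was the single gene of this list called at the early passage with the 75th percentile. Over 17 alternatives the number called there was 1 to 11, and it was 7 without early Dunn replicate 2. The log2 levels of Ccnd2 were -1.10, -1.36 and -1.61 in early Dunn, 3.06, 2.92 and 2.68 in late Dunn, 2.40, 1.79 and 1.73 in early LM8 and 2.50, 2.58 and 2.23 in late LM8. Early Dunn was thus far below the other groups. At the early passage Ccnd2 was 10.0-fold higher in LM8 (log2 difference 3.33, SE 0.34, adjusted p = 0.00468), while at the late passage the difference was -0.45 (SE 0.23, adjusted p = 0.271). The increase with passage in Dunn was 4.24 (SE 0.31, adjusted p = 0.0886), and the interaction of line and passage passed the test (adjusted p = 0.00227). The passage difference of Myc RNA in Dunn was -0.37 (SE 0.32, adjusted p = 0.766 by limma) and did not pass the test. A part of Myc in the Ccnd2 pattern was not tested.

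Of 13 genes known to be repressed by Myc, 1 was called higher and 5 lower in LM8 (median -0.58). Over all genes 5.49% were called higher and 39.2% lower. In the unscaled values 4 of the list were called higher and 0 lower, where 24.8% of all genes were called, 94% of them higher. Pdgfrb, a receptor of mesenchymal cells, differed by -1.56 (SE 0.27, adjusted p = 0.00258), Cdkn1a, the cyclin-dependent kinase inhibitor p21, by -1.37 (SE 0.26, adjusted p = 0.00487) and Ndrg1, a stress-induced gene, by -1.33 (SE 0.18, adjusted p = 0.000507). Ndrg1 was called at the early passage as well (-1.58, SE 0.30, adjusted p = 0.0414) and Cdkn1a at the late passage (-1.41, SE 0.21, adjusted p = 0.0348), and neither was with the slide as a block (adjusted p = 0.0812 and 0.168). Unscaled, the pooled differences of these 3 genes were -0.37, -0.18 and -0.15. The single higher call was Gadd45b at 0.49 (SE 0.18, adjusted p = 0.0471, and 0.0528 with the slide as a block), which was also higher unscaled, and the remaining lower calls were Itgb1 and Ndrg2. The number called at the early passage (1) ranged from 0 to 5 over 17 alternatives, and that at the late passage (1) from 0 to 4. Early, it was 0 without early LM8 replicate 1, 2 or 3 or early Dunn replicate 3 and 5 without early Dunn replicate 2, and late, it was 4 without late Dunn replicate 1 and 0 without each of the other late arrays.

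Of 16 proliferation genes, 3 were called higher and 5 lower with passages pooled (median -0.15), beside 5.49% and 39.2% of all genes. In the unscaled values 7 were higher and 0 lower, where 24.8% of all genes were called and 94% of those calls were higher. The higher calls were Mcm3, Pcna and Bub1, at 1.94 (SE 0.59), 1.75 (SE 0.41, with 5 Dunn values) and 0.71 (SE 0.26), and their lines overlapped. The lower calls were Cdk1, Mcm4, Plk4, Rrm2 and Aurkb, of which Aurkb was below background and Mcm4 and Rrm2 were not called with the slide as a block (adjusted p = 0.0524 and 0.0533). Without the 4 arrays of slide 1, the genes called in either direction with passages pooled fell from 16 to 3 of the Myc-induced targets, from 6 to 3 of the Myc-repressed targets, from 8 to 1 of the proliferation genes and from 6 to 2 of the PRC1.6 subunits. They also fell from 6 to 2 of the cofactors, from 4 to 3 of the Mlx branch and from 3 to 0 of the genes of Myc protein turnover. The share of all genes called without slide 1 was not counted. A loss of calls among all genes and a loss particular to these lists therefore cannot be told apart. By passage, limma called 0 of the genes of the 7 lists in either line, with 3 of 117 at an unadjusted p below 0.05 in Dunn and 6 of 118 in LM8. The list medians lay between -0.35 and -0.04 in Dunn and between -0.18 and 0.07 in LM8.

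**Figure D5:**
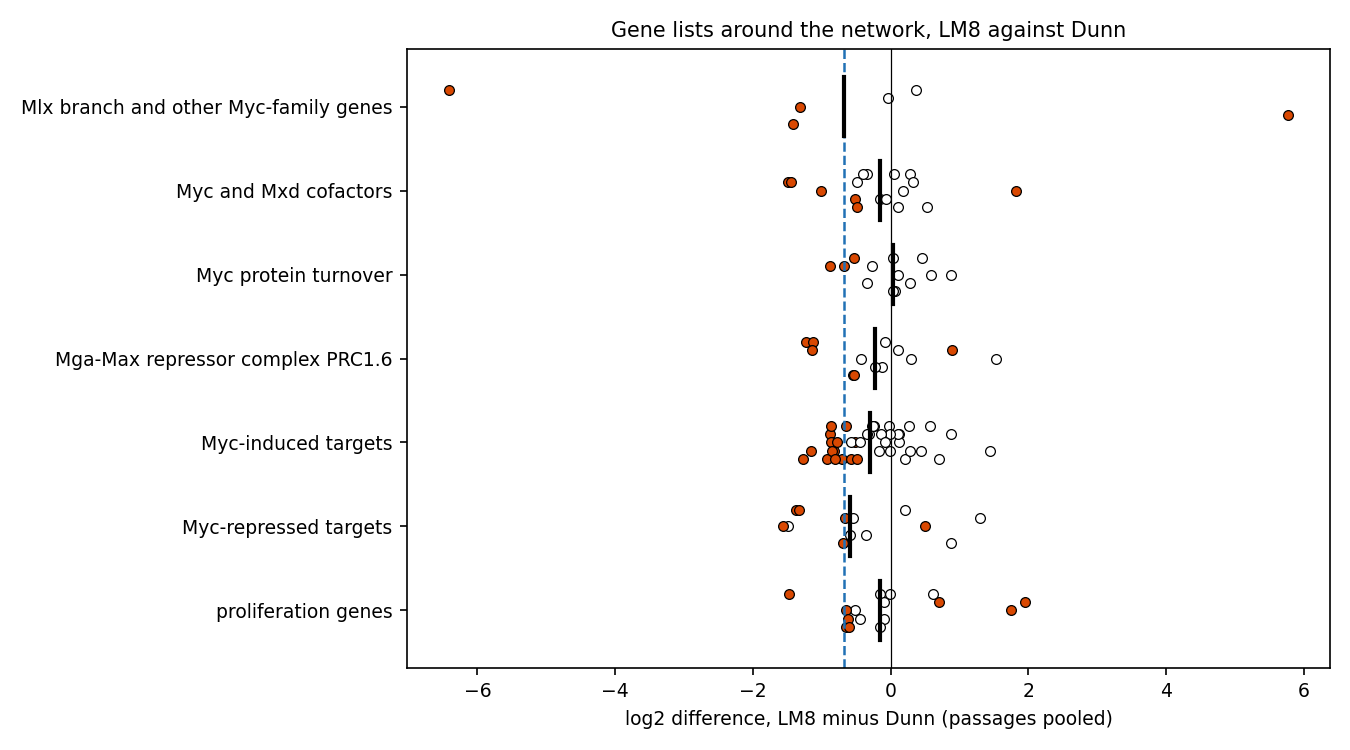
Log2 difference between LM8 and Dunn with passages pooled for the genes of each list. Filled points were called, thick bars are list medians and the dashed line is the median over all genes (-0.68). Bmyc at -6.41 and Mlxipl at 5.76 lay far outside the range of the other genes.

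Finally, the genes whose levels most resembled those of Myc and Mycn over the 12 arrays were sought among 8173 genes above background on all arrays. These correlations describe arrays that share lines and slides, and carry no test. For Myc the closest were Spryd3 (r = 0.992), Ptk2, the focal adhesion kinase (0.991), Mettl16, an RNA methyltransferase (0.991), Pard3, a polarity protein (0.990), and Mapk6, an atypical MAP kinase (0.989). Spryd3 (chr15:102116526-102136218) and Ptk2 (chr15:73205102-73423820) lie on the chromosome of Myc. Mettl16 (chr11:74770815-74826855), which lies beside Mnt, Pard3 on chromosome 8 and Mapk6 on chromosome 9 do not. Wnt1 (chr15:98789857-98793830), whose levels ran the other way, also lies on the chromosome of Myc. The share of all compared genes on that chromosome was not counted, and a part of position in these patterns was not tested. For Mycn they were Wnt1, a secreted ligand (r = 0.987), Akip1 (0.978), Tbx1, a T-box factor (0.976), Tnfrsf19, a receptor of the TNF family (0.975), and Specc1 (0.967). The group means of Wnt1 were -2.36 and -2.64 in early and late Dunn and -0.46 and -0.31 in early and late LM8, and those of Ptk2 1.97, 1.79, 0.74 and 0.49 in the same order. Among the members themselves, Myc ran with Mnt (r = 0.935) and Mxd4 (0.886) and against Mycn (-0.925).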

How the data were processed

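RNA of Dunn and LM8 cells (4 groups of 3) was hybridised to 1-colour Agilent mouse arrays, scanned with Agilent Feature Extraction 10.7.3 per the labels. The deposited intensities are the background-subtracted processed signal of each spot, with no scaling between arrays. The authors' table of the same signals, rounded (largest relative difference 0.00497), was an alternative. Control spots and outlier flags were left out, 43020 spots gave 39429 probes, and 67.4% of them were named through RefSeq (GRCm38.p6). Signals were divided by each array's 75th percentile, and log2 values were tested with limma 3.58.1 (R 4.3.3), 2-sided, with Benjamini-Hochberg adjustment over all probes. The probe with the highest mean signal represented a gene. Arrays of an equal replicate number share a slide. Their deviations from the group means correlated at -0.23 to 0.683 (12 of 18 pairs above 0.1). Over the probes above background on all arrays they correlated at 0.16 to 0.541, so the slide was an alternative block. Well above background follows the scanner's flag. Normexp (offset 50) used the median spot signal, the mean signal being not used here. All 10 members were named. From each list, up to 3 called rises and 3 called falls per comparison were named where groups did not overlap and the higher group was above background. Some list genes are counted but not reported here by name. Other list genes were named after their values were seen. The members and lists were chosen with earlier results of these data known. The fits were tested on simulated data. Precision is limited by 3 arrays a group. Promoter windows came from RefSeq, and figures were drawn with matplotlib.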

Additional observations from a re-analysis of the deposited data

Results flagged for a closer look

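Ccnd2, encoding cyclin D2 in the list of Myc-induced targets, changed with passage differently in the 2 lines. On the log2 scale its interaction was -3.78 (SE 0.37, adjusted p = 0.00227 by limma). All 3 early Dunn arrays (-1.61 to -1.10) lay below all 9 other arrays (1.73 to 3.06). Myc and Mycn had interactions of 0.04 and 0.42 that did not pass the test. The cause was not tested.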

How the results depend on the processing

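The numbers of members called by passage in Dunn, by passage in LM8 and in the interaction were 0 under every alternative. Between the lines with passages pooled, 5 members were called. There were 3 with quantile normalization, 3 in the unscaled deposited table, 3 when centred on the probes above background and 2 without slide 1. The last 2 settings were chosen after seeing the data. Of all genes, 44.7% were called with the 75th percentile, 20.4% with quantile normalization, 24.8% unscaled and 16.4% when centred. Without slide 1 or single arrays, and for the alternatives at a single passage, the share of all genes called was not counted. The counts of members and listed genes there cannot be set against that share. Leaving out single arrays gave 3 to 6, with 3 without late Dunn replicate 1, early Dunn replicate 3, early LM8 replicate 3 or late LM8 replicate 2 or 3. At the early passage 2 were called, against 4 with quantile normalization, 5 with normexp, 5 with the floor on dim signals, 1 in the unscaled table, 1 when centred, 0 with the replicate block, 0 by the methods' t-test and 0 without slide 1. Single arrays gave 0 to 5, with 5 without early Dunn replicate 2, 1 without early Dunn replicate 1, and 0 without early Dunn replicate 3 or early LM8 replicate 1, 2 or 3. At the late passage 2 were called, against 1 in the unscaled table and 0 with the replicate block, and single arrays gave 0 to 2, with 0 without late LM8 replicate 2. The pairing by slide changed no other member's call: with passages pooled the replicate block kept 5. Of 182 recomputed differences of called members, 131 kept direction and call, 50 kept direction only, and 1 reversed, Mnt in the unscaled table (0.72). Mycn with passages pooled was called in 11 of 11 settings and without each single array, Myc in 10 of 11 settings and without each single array. Signals not well above background limit Mycl and Mxi1.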
